A study of Mus musculus with 23 samples.

Results

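Gene expression in the left ventricle was compared between mice exposed to nicotine-containing e-cigarette aerosol and mice exposed to the vehicle alone, both from 3 months of age on. The mice were of the FVB strain, an inbred white laboratory strain. One group is labelled as given the e-cigarette vehicle and the other as given that vehicle with nicotine, with sessions of 4 h on 5 days of each week during 3 months. The 2 groups have 4 libraries each, out of 23 libraries in 6 groups, and were taken by their titles. All 14526 of 49315 genes in the table that passed a filter on low counts were tested, and every difference is given as nicotine minus vehicle. A further group of 4 libraries, from mice given filtered air from the same age, is set beside them. The vehicle aerosol is thus shared by both groups compared, and air lacks it. Total RNA came from flash-frozen ventricles by Trizol. Whether each library is from its own animal is not stated, so a p-value here speaks for the scatter among these samples only, some of which may be technical. Nicotine dose, sex, cage and day are not given either.

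Nicotine acts on nicotinic acetylcholine receptors, ligand-gated cation channels that in the autonomic nervous system sit on ganglion neurons and on the adrenal medulla, so that it reaches the heart largely through catecholamines released there. The ventricle itself is mostly cardiomyocyte by volume. Each beat starts with calcium entry through L-type channels, which opens the ryanodine receptor of the sarcoplasmic reticulum, and ends as the calcium is pumped back by SERCA2 and carried out by the sodium-calcium exchanger. Levels here are CPM (counts scaled to a common library total) after TMM scaling, which do not correct for gene length and so are compared between libraries and not between genes.

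The libraries carried the label's tissue. Myl2, the ventricular myosin light chain, was at 6972, 6282, 5605 and 5895 CPM in nicotine libraries 1 to 4 and at 7397, 8839, 7199 and 7602 CPM in vehicle libraries 1 to 4. The atrial light chain Myl7 was at 9.55, 3.75, 4.46 and 0 and 0, 0.0599, 0 and 3.23 CPM in the same order. Of 10 lung epithelium markers 2 passed the filter, and of 12 skeletal muscle markers 5 did. Library totals were 13551910 to 14829988 counts with nicotine and 15479065 to 17364061 with vehicle. Noncoding genes took 1.21 to 1.30% of the counts with nicotine and 1.49 to 1.66% with vehicle, against 1.23 to 1.46% in air. The rank correlation of a gene's level with its exonic length, across genes within a library, was 0.220 to 0.263 with nicotine, 0.206 to 0.219 with vehicle and 0.235 to 0.262 in air, so that long genes stood relatively lower in vehicle libraries. The part of these shifts in the results was looked at for length alone. A fit with a smooth trend on exonic length as an offset (called the length offset here) is given beside a result where it ends a call. The trend is fitted to each of these libraries, so it also takes out any group difference that goes with length.

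At a threshold of 0.05 on the Benjamini-Hochberg adjusted p of edgeR's quasi-likelihood test, 2405 genes were called, which is 16.6% of those tested. Of these 1476 (10.2%) were higher and 929 (6.4%) lower with nicotine. Calls in the gene lists below are to be read beside these shares, and some lists are close to them. Most differences were small. The quartiles of the log2 difference were 0.29, 0.37 and 0.49 among higher genes and -0.44, -0.34 and -0.29 among lower ones, while 44 genes were higher and 22 lower by more than 1 log2. All 4 nicotine libraries lay above all 4 vehicle libraries in 1646 genes (11.3%) and below them in 1203 (8.28%). Upper-quartile scaling in place of TMM gave 1148 higher and 1410 lower, while RLE scaling gave 1517 higher and 890 lower. The balance of directions thus depended on which scaling was used. The median difference of all genes was -0.02 log2 with TMM and -0.07 with upper quartiles.

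The calls depended on which libraries entered the fit. The main one used the 12 libraries of the 3-month start, whose common biological coefficient of variation was 0.105. With all 23 libraries in the fit, whose coefficient was 0.179, edgeR called 0 genes (1889 had an unadjusted p under 0.05, and 4483 had one in the fit of 12). DESeq2 on the 12 libraries called 2652. Single libraries also weighed: 1253 genes were called without vehicle library 2 and 1330 without nicotine library 4, and 1081 passed without each nicotine and vehicle library in turn. Among the lower genes, the 929 became 380 without vehicle library 2, 411 without nicotine library 4, 567 and 590 without nicotine libraries 2 and 3, and 596 without vehicle library 3.

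**Figure D1:**
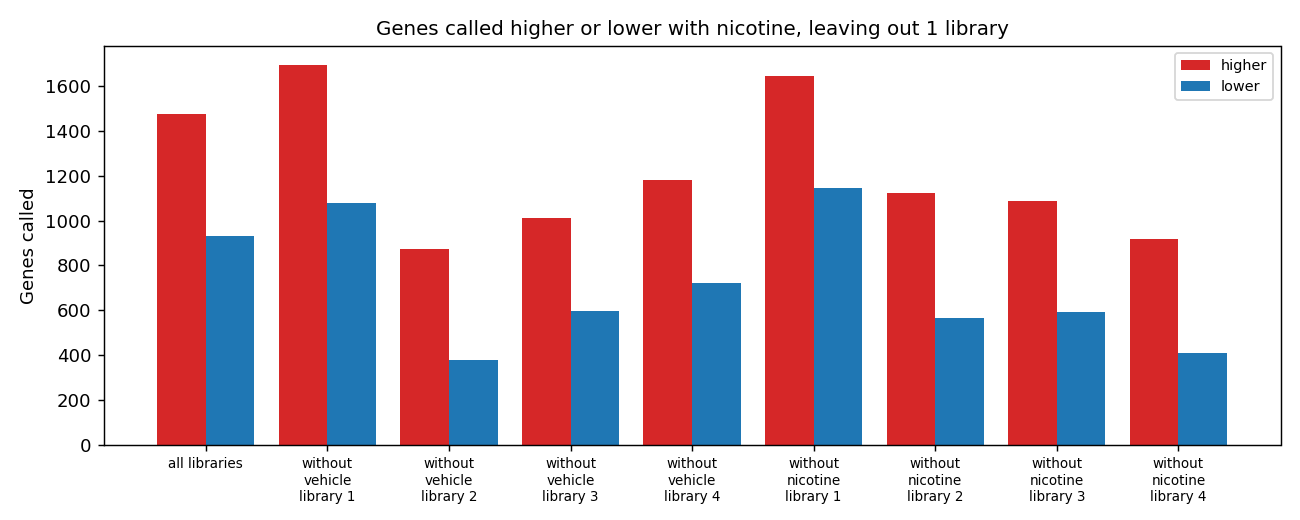
Number of genes called higher (red bars) and lower (blue bars) with nicotine, with all 12 libraries and when 1 nicotine or vehicle library (x axis) is left out. The count is smallest without vehicle library 2 (873 higher, 380 lower) and without nicotine library 4 (919 higher, 411 lower).

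Gene length went along with direction. Across genes the log2 difference had a rank correlation of 0.358 with exonic length, and -0.00054 after the length offset. The latter is near 0 by construction, as the offset takes out each library's own trend on length. Median exonic length was 6612 bases among higher genes, 2371 among lower genes and 4138 among genes not called. When the genes were cut into 5 classes of equal number by length, the shortest (56 to 2217 bases) had 54 higher and 439 lower genes, whereas the longest (7400 to 123179 bases) had 603 higher and 68 lower. With the length offset 1688 genes were called (11.6%), 1089 higher (7.5%) and 599 lower (4.12%), of which 1422 were called with the same sign without it. The classes then held 110 higher and 70 lower at the short end and 281 higher and 163 lower at the long end.

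**Figure D2:**
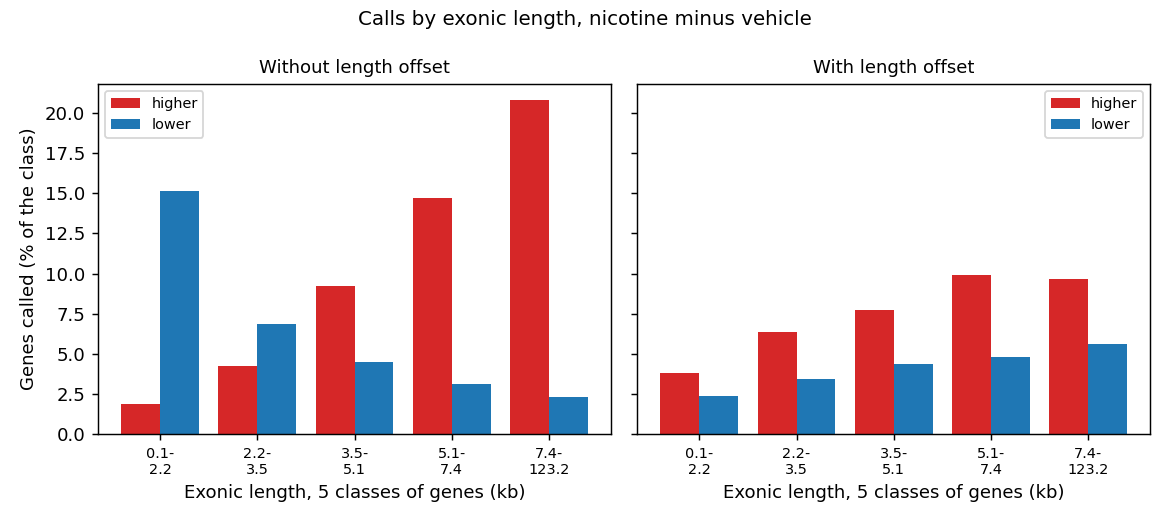
Genes called higher (red) and lower (blue) with nicotine, in percent of the genes of each of 5 classes of exonic length (kb), as fitted (left) and with the length offset (right). In number, as fitted, lower calls fall from 439 to 68 and higher calls climb from 54 to 603 between the shortest and the longest class. The slope is much flatter with the offset, which takes out each library's trend on length by construction.

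Nicotine library 1 lay nearest to vehicle among the nicotine libraries. It was the lowest nicotine library in 986 of the 1476 higher genes and the highest in 557 of the 929 lower ones. Its deviations from the 12-library mean had a rank correlation of -0.13 with exonic length, against 0.144 to 0.296 in nicotine libraries 2 to 4 and -0.315 to -0.229 in vehicle. Without it 2788 genes were called. Vehicle library 1 lay nearest to nicotine in a like way: it was the highest vehicle library in 863 of the 1476 higher genes and the lowest in 350 of the 929 lower ones, and 2774 genes were called without it.

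In the same fit nicotine minus air gave 7 called genes (0.0482%), 4 higher (0.0275%) and 3 lower (0.0207%), and vehicle minus air gave 2721 (18.7%), 1110 higher (7.64%) and 1611 lower (11.1%). These comparisons share their libraries with nicotine minus vehicle, so they are given side by side with the members' values and not as separate evidence.

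One group moved together and its sequences are shown first. All 30 ribosomal protein genes listed, which encode the protein part of the ribosome, were lower with nicotine, where 6.4% of all genes were, with a median of -0.36 log2 and a range of -0.45 to -0.19. Their messenger RNAs are known for a short run of pyrimidines (C and T in DNA letters) at the cap, the TOP motif through which growth signals govern their translation. The stretch around the RefSeq start, 10 bases before it and 20 from it, is given 5′ to 3′ for 4 of them on the mouse build GRCm38.p6, with the longest run of C and T in capitals.
Rplp2 (chr7:141447641-141447670, plus strand): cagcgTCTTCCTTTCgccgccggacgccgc
Rps18 (chr17:33955646-33955675, minus strand): cacttccgCTCTCTCTTCCacaggaggcct
Rps9 (chr7:3704031-3704060, plus strand): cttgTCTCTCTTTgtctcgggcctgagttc
Rps15 (chr10:80292421-80292450, plus strand): cagagCTCgcgataactgcgcaagcgcagc
The first 3 hold runs of 10, 11 and 9, and the last holds only 3. Of the 22 listed genes with a RefSeq entry, 11 (50%) had a run of at least 6 in this window, as did 28.6% of 27025 genes. Runs were counted on the strand that reads like the messenger RNA, anywhere in the window and not only at the start. A run is a description of the letters, not evidence of a site in use.

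Rps18, of the small subunit, was at 109.8, 105, 95.7 and 102 CPM in nicotine libraries 1 to 4, 136, 162, 137 and 129 CPM in vehicle libraries 1 to 4 and 107 ± 11.3 CPM (mean ± SD, n = 4) in air, a fall by 0.45 ± 0.08 log2 (SE; edgeR adjusted p = 0.00291). The stalk protein gene Rplp2 was at 209, 211, 185 and 202 against 247, 277, 269 and 267 CPM (-0.39 log2). Rps9 read 367, 356, 309 and 323 against 425, 471, 445 and 435 CPM. Rps15, the gene without a long run, was at 335, 311, 276 and 292 against 383, 447, 390.4 and 395 CPM and fell by 0.41 log2 (adjusted p = 0.00277, or 0.0565 under the length offset). In all 30 genes every nicotine library was under every vehicle library, where 8.28% of all genes had that order. The list's mean level was 7.65 to 7.88 log2 CPM with nicotine, 8.05 to 8.21 with vehicle and 7.66 to 7.91 in air, so nicotine and air overlapped. With the length offset 19 of the 30 were lower, and 24 to 30 were without single libraries. With median exonic length 2030 the listed genes are shorter than the 4252 of all genes tested.

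Calcium handling genes were mostly higher. Of 15 tested, 8 rose and 2 fell, where 10.2% and 6.4% of all genes were called, and the median was 0.30 log2. Atp2a2, which encodes the pump SERCA2, was at 14088, 15516, 17097 and 18109.6 CPM with nicotine, 11256, 8342, 9575 and 9506 CPM with vehicle and 16270.0 ± 2053 CPM in air. All 4 nicotine libraries were above all 4 vehicle libraries, by 0.74 ± 0.10 log2 (adjusted p = 0.00122), and vehicle was below air (-0.75 log2, adjusted p = 0.000967) while nicotine minus air was -0.01 log2 (adjusted p = 0.995). Ryr2, the calcium release channel, was at 1094, 1564, 1639 and 1609 against 914, 701, 745 and 836 CPM, with 1686 ± 351 CPM in air. Here nicotine library 1 was well under the other nicotine libraries and yet above every vehicle library (0.89 ± 0.16 log2, adjusted p = 0.00472).

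Slc8a1, the sodium-calcium exchanger that carries calcium out of the cell, had the largest difference among the calcium genes called. It was at 104, 137, 188 and 195 CPM with nicotine, 61.2, 32.8, 47 and 52.8 CPM with vehicle and 159 ± 49 CPM in air, a rise of 1.68 ± 0.29 log2 (adjusted p = 0.00498, or 0.00674 under the length offset). The lowest nicotine library, again number 1, held more than the highest vehicle library. Camk2d, the calmodulin kinase that phosphorylates the release machinery, rose by 0.35 log2, and Jph2, which tethers the reticulum to the surface membrane, by 0.35. Casq2, the calcium buffer inside the reticulum, and Srl (sarcalumenin), another luminal calcium binder, rose by 0.30 and 0.46.

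The 2 calcium genes that fell did so less firmly. Trdn (triadin), which anchors calsequestrin to the ryanodine receptor, was -0.30 ± 0.08 log2 (adjusted p = 0.023), with adjusted p of 0.0514, 0.107, 0.0739 and 0.0643 without vehicle library 1, vehicle library 2, nicotine library 2 and nicotine library 3. S100a1, a calcium sensor that stimulates SERCA2, was -0.27 log2 (adjusted p = 0.0172), with 0.0743, 0.0523 and 0.064 without vehicle library 2, nicotine library 3 and nicotine library 4, and 0.75 with the length offset. Pln (phospholamban), the inhibitor of SERCA2, did not pass (0.15 ± 0.06 log2, adjusted p = 0.0751).

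**Figure D3:**
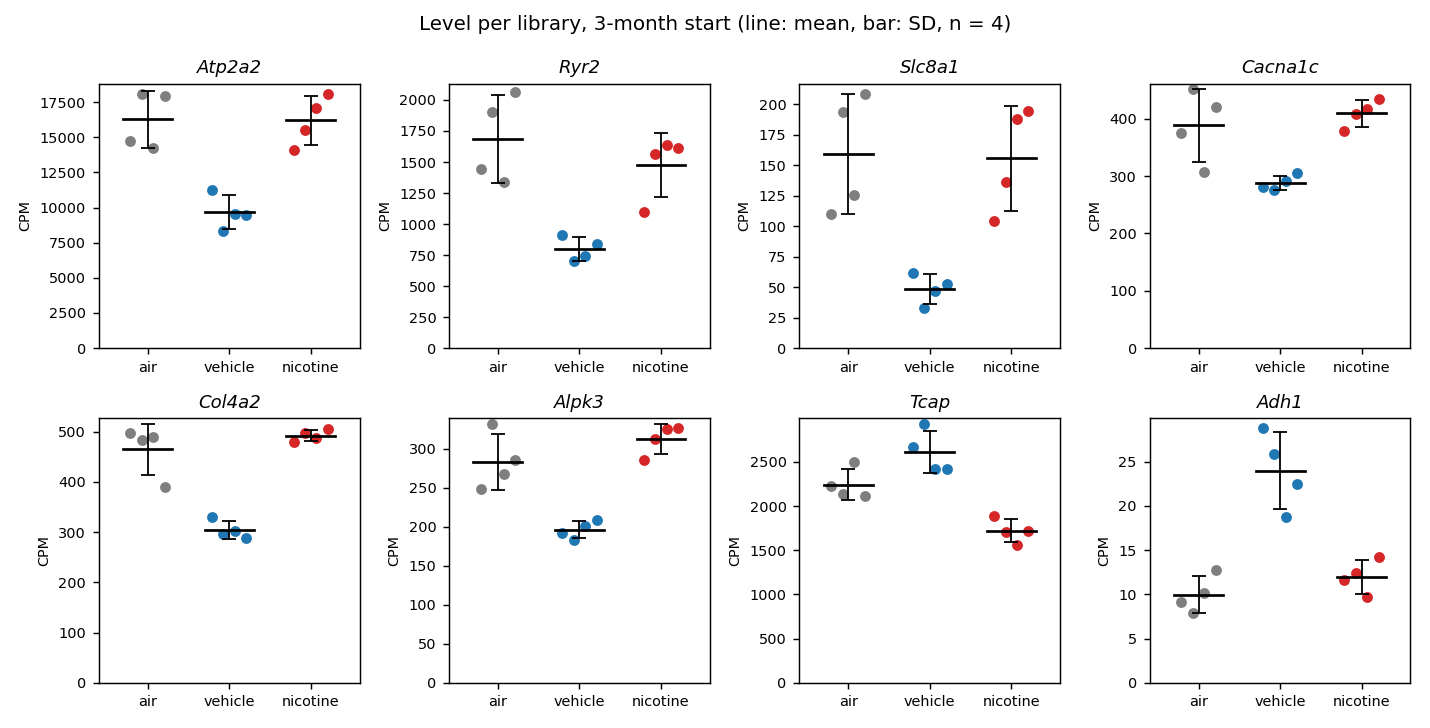
Level (CPM after TMM scaling) of 8 genes in each library of the 3-month start, by group (air, vehicle, nicotine). Points are libraries, the line is the group mean and the bar 1 SD; nicotine lies above vehicle in Atp2a2, Ryr2, Slc8a1, Cacna1c, Col4a2 and Alpk3 and below it in Tcap and Adh1, without overlap.

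Ion channel and connexin genes, which shape the action potential, had 7 higher and 0 lower of 26 tested, with a median of 0.24 log2 and 21 positive. Cacna1c, the pore of the L-type calcium channel, was at 378, 407, 417 and 434 CPM with nicotine and 280.1, 276, 291 and 304 CPM with vehicle. Every nicotine library was above every vehicle library, by 0.51 ± 0.09 log2 (adjusted p = 0.00277). Both parts of the ATP-sensitive potassium channel rose, the pore Kcnj11 by 0.30 log2 (adjusted p = 0.00947) and the sulfonylurea receptor Abcc9 by 0.52 (adjusted p = 0.00695). The background potassium channel Kcnk3 rose by 0.35 log2 (adjusted p = 0.00694). The list's 7 calls became 4 without vehicle library 2 and 12 without vehicle library 4. Against air, vehicle was called lower in 16 of the 26 genes and higher in 0 (median -0.41 log2). Nicotine minus air had 1 lower and 0 higher (median -0.08 log2).

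Sarcomere genes went both ways. Of 19 tested, 6 rose and 5 fell (median 0.10 log2). Those that fell encode small thin-filament, light-chain and Z-disc proteins. Tcap (telethonin), which caps titin at the Z-disc, was at 1887, 1706, 1564 and 1723 CPM with nicotine, 2663, 2923, 2423 and 2424 CPM with vehicle and 2243 ± 174 CPM in air. The groups did not overlap (-0.60 ± 0.08 log2, adjusted p = 0.000559), and Tcap stayed lower with the length offset (-0.38 log2, adjusted p = 0.00124). Myl2 fell by 0.33 log2 (adjusted p = 0.00955), with the values given above. Tnni3 and Tnnc1, the inhibitory and calcium-binding troponins, were at -0.33 and -0.34 log2 (adjusted p = 0.00648 and 0.00498), the latter with 0.0943 under the length offset.

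Giant or long sarcomere proteins were among those that rose. Myom1, of the M-band, was 0.32 log2 (adjusted p = 0.00687, or 0.0555 under the length offset). Ttn (titin), the molecular spring, overlapped between groups (0.38 ± 0.11 log2, adjusted p = 0.0284) and had adjusted p of 0.0528 to 0.0883 without any 1 of vehicle libraries 2, 3 and 4 and nicotine libraries 2, 3 and 4, and 0.139 with the length offset. With that offset 1 sarcomere gene was higher and 3 lower, and the 11 calls became 5, 6 and 7 without nicotine library 4, vehicle library 2 and nicotine library 2.

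The 2 ventricular myosin heavy chains, with 6726 (Myh6) and 8616 (Myh7) exonic bases, went opposite ways. Myh6, the fast alpha chain that dominates the adult mouse ventricle, was at 43275, 47351, 41673 and 44902 CPM with nicotine and 38443, 36322, 36638 and 39697 CPM with vehicle. Myh7, the slow beta chain, which is known to rise under hemodynamic load, was at 3949.6, 3100.0, 3332 and 3594 against 4229, 5675, 5149 and 5068 CPM, with 3288 ± 652 CPM in air. Neither overlapped between groups. Myh6 was 0.23 ± 0.06 log2 (adjusted p = 0.0165, or 0.0853 under the length offset) and lost its call without vehicle library 2, nicotine library 2 or nicotine library 4 (adjusted p = 0.0523, 0.0545 and 0.0507). Myh7 was -0.53 ± 0.13 log2 (adjusted p = 0.0166), with 0.0638 without vehicle library 2 and 0.0538 without nicotine library 2. Against air, vehicle was higher in Myh7 (0.61 log2, adjusted p = 0.00746) and nicotine minus air was 0.09 (adjusted p = 0.975).

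Other markers of cardiac stress did not pass the edgeR threshold. Of 13 tested, Myh7 alone was called by edgeR, while 3 had an unadjusted p under 0.05 and DESeq2 called 3. Nppa, the atrial natriuretic peptide gene, was at 149, 163, 116 and 173 CPM with nicotine and 155, 129, 197 and 149 CPM with vehicle, and Nppb, the B-type peptide gene, at 518, 687, 467 and 505 against 494, 479, 589 and 516 CPM. The groups overlapped in both (adjusted p = 0.899 and 0.837). Acta1, the skeletal actin of the fetal programme, was 0.08 ± 0.34 log2 (adjusted p = 0.906) and Ankrd1, a stretch-responsive repeat protein gene, 0.01 ± 0.14 (adjusted p = 0.961).

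Several muscle-specific genes were among those with the smallest p. Alpk3, an atypical kinase of the M-band whose loss causes cardiomyopathy, was at 285, 313, 325 and 327 CPM with nicotine, 192, 183, 200.5 and 209 CPM with vehicle and 283 ± 35.4 CPM in air (0.67 ± 0.08 log2, adjusted p = 0.000519). Fsd2, of striated muscle, was at 540.3, 629, 640.2 and 678 against 422, 349, 376 and 383 CPM. The coiled-coil protein gene Txlnb read 609.8, 695, 687 and 740.1 against 469, 442, 449.5 and 469.8 CPM. Asb15, a muscle ankyrin protein, was at 73.6, 78.5, 83.7 and 83.3 against 43.9, 42.7, 45.5 and 45.8 CPM, which at 0.84 ± 0.10 log2 was the largest among the 10 higher genes with the smallest p. In each of these the 4 nicotine libraries lay above the 4 vehicle libraries.

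Called genes for muscle protein turnover were mostly higher too. Of 17 tested genes of the ubiquitin ligases, FOXO factors and autophagy in the atrophy list, 7 rose and 1 fell, and 8 rose and 0 fell with the length offset. Fbxo40, a muscle ubiquitin ligase subunit for the insulin receptor substrate, was at 369, 436, 373 and 415 CPM with nicotine and 262, 258, 284 and 292 CPM with vehicle (0.54 ± 0.07 log2, adjusted p = 0.000805). Fbxo32 (atrogin-1) was at 182, 210.5, 232 and 202 against 132, 144, 129 and 165 CPM (0.54 log2, adjusted p = 0.00193). Trim55 (MuRF2) rose by 0.36 log2. Trim63 (MuRF1) rose by 0.31 log2 (adjusted p = 0.025), and had adjusted p of 0.0804, 0.0784, 0.0642 and 0.0714 without vehicle libraries 2 and 3 and nicotine libraries 1 and 2. The list's 8 calls became 4 without vehicle library 2 or 3 and 5 without nicotine library 2 or 4.

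Basement membrane genes, whose products form the sheet around each cardiomyocyte and capillary, had 9 higher and 0 lower of 17 tested (median 0.25 log2), with 5 higher under the length offset. Col4a2 was at 479, 497, 487 and 505 CPM with nicotine, 331, 296, 303 and 288 CPM with vehicle and 465 ± 50.4 CPM in air (0.69 ± 0.07 log2, adjusted p = 0.00023, or 0.000537 under the length offset). Its partner chain Col4a1, transcribed from the same promoter region in the other direction, was at 616, 637, 618 and 651 against 440.1, 412, 407 and 384 CPM. Both chains had all nicotine libraries far above all vehicle libraries, with nicotine minus air at 0.08 and 0.13 log2 (adjusted p = 0.94 and 0.879) and vehicle below air (-0.61 and -0.49 log2, adjusted p = 0.000445 and 0.00176). Col15a1, a collagen that bridges basement membrane and matrix, was at 114, 106, 135 and 113 against 73.8, 69.7, 86.3 and 88 CPM. The laminin chain Lamc1 rose by 0.42 log2 (adjusted p = 0.00365).

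Genes of the interstitial matrix had 9 higher and 0 lower of 24 tested (median 0.28 log2), and 5 higher and 1 lower with the length offset. Fbn1 (fibrillin-1), of the microfibrils, was at 51.2, 65, 75.2 and 57.5 CPM with nicotine and 35.1, 35.1, 44.1 and 41.3 CPM with vehicle (0.68 ± 0.11 log2, adjusted p = 0.00187). Col6a1 and Col6a2, collagen VI chains of the pericellular matrix, rose by 0.35 and 0.41 log2, and the crosslinking enzyme Loxl1 by 0.41. Col1a1, the fibrillar collagen of scar, was at 101, 107, 129 and 96.4 against 77.7, 71.5, 85.4 and 101 CPM, overlapped, and did not pass (0.37 ± 0.15 log2, adjusted p = 0.11). Of 12 fibroblast markers 0 were called by edgeR (6 at an unadjusted p under 0.05) and 2 by DESeq2. The matrix list's 9 calls became 4 and 5 without vehicle libraries 3 and 2.

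**Figure D4:**
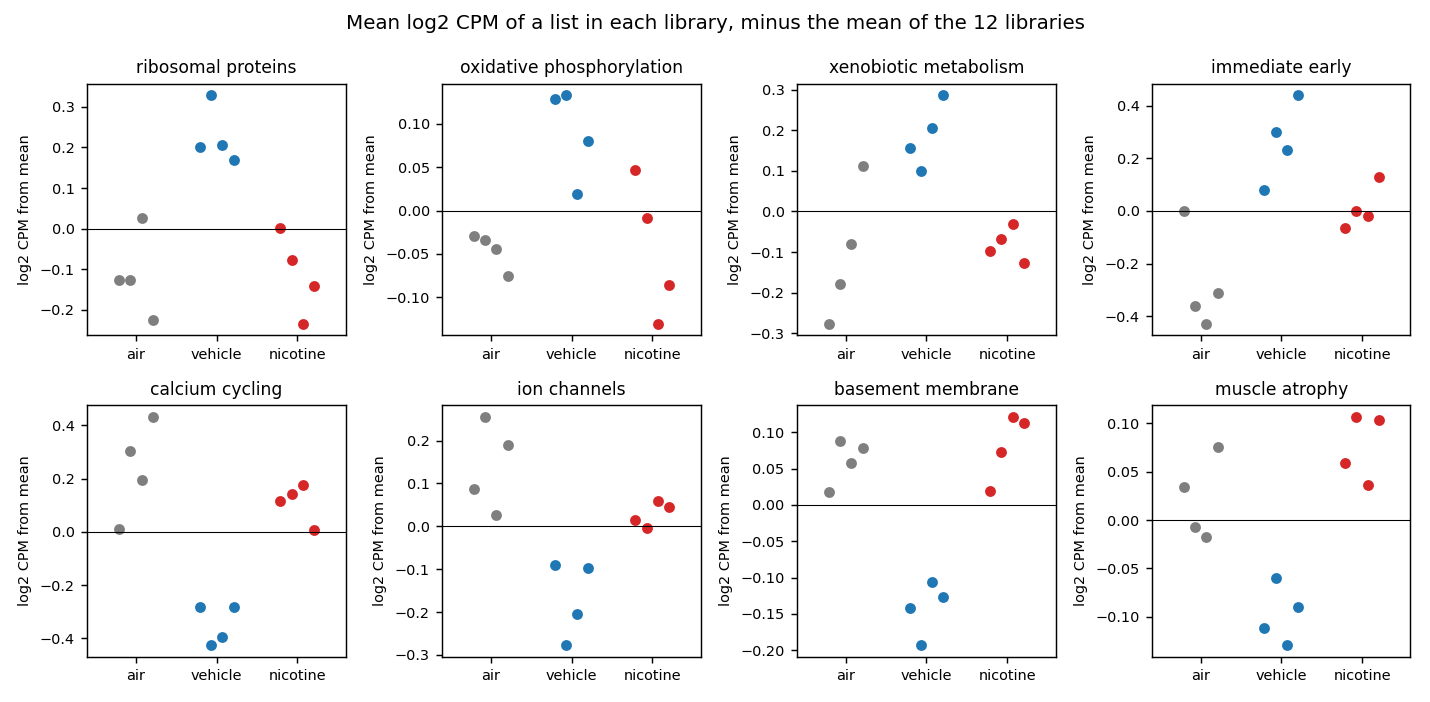
Mean log2 CPM of 8 gene lists in each library (points, by group on the x axis), less its mean over the 12 libraries of the 3-month start. The calcium list includes Sln, which is near 0 CPM. Vehicle libraries lie above nicotine and air in the ribosomal list and below them in the basement membrane list.

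Nuclear genes of oxidative phosphorylation leaned lower. Of 31 tested 2 rose and 13 fell, 26 were negative, and the median was -0.14 log2. Small accessory subunits fell, such as Cox8b of complex IV (-0.39 log2, adjusted p = 0.00175) and Ndufa1 of complex I (-0.37, adjusted p = 0.00374). Large catalytic subunits rose, namely Ndufs1 of complex I (0.34, adjusted p = 0.00402) and Sdha of complex II (0.25, adjusted p = 0.00913). With the length offset 3 were higher and 1 lower, and Cox8b and Ndufa1 had adjusted p of 0.177 and 0.202. The 15 calls became 7 without vehicle library 2 or nicotine library 4 and 8 without nicotine library 3. Of 13 mitochondrially encoded genes, mt-Nd2 and mt-Co1 rose by 0.45 and 0.30 log2 and mt-Nd6, the sole protein gene of the light strand, fell by 0.45 (adjusted p = 0.303 with the length offset).

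Fuel genes showed no common direction. Of 31 genes of fatty acid oxidation 3 rose and 3 fell, where 10.2% and 6.4% of all genes did. Acsl1, which activates fatty acids, rose by 0.41 log2 (adjusted p = 0.00573) with the groups overlapping, and Etfb, which passes their electrons on, was at -0.43 (adjusted p = 0.00372). Pdk4, the kinase that holds back glucose oxidation, did not pass (0.58 ± 0.27 log2, adjusted p = 0.17). Of 22 genes of glucose uptake and glycolysis 5 rose and 2 fell. Hk2, a hexokinase, was at 652, 577, 572 and 683 CPM with nicotine and 467, 419.9, 454 and 433 CPM with vehicle (0.49 ± 0.09 log2, adjusted p = 0.00216), without overlap. Pdha1, the entry subunit of pyruvate dehydrogenase, rose by 0.39 log2, and the muscle phosphoglycerate mutase Pgam2 was -0.35 log2 (adjusted p = 0.00225, or 0.133 under the length offset). The 7 calls became 4 without vehicle library 2, nicotine library 2 or nicotine library 4.

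**Figure D5:**
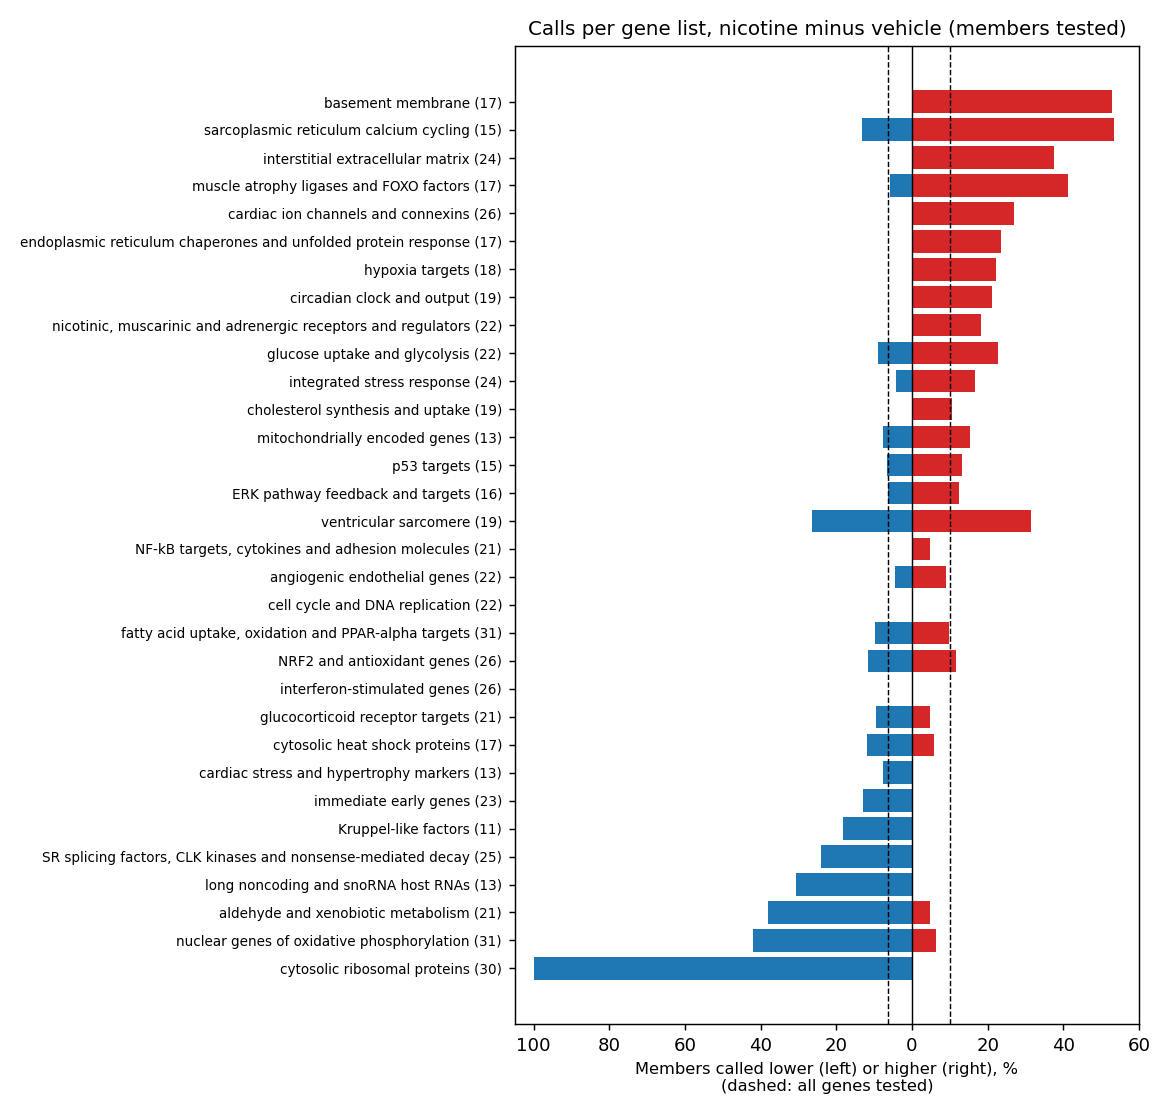
Share of tested members called lower (left) and higher (right) with nicotine in each of 32 pathway lists, in percent, with dashed lines at the shares of all genes tested (6.4% and 10.2%). The ribosomal list reaches 100% on the lower side, and the calcium and basement membrane lists have the largest shares on the higher side.

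Of 21 tested enzymes and regulators that handle foreign compounds and aldehydes 8 fell, 1 rose and 12 did not pass (median -0.20 log2). With the length offset 7 fell and 1 rose, and 6 to 8 of the list were called without single libraries. Adh1, an alcohol dehydrogenase that also oxidizes retinol, was at 11.7, 12.4, 9.66 and 14.3 CPM with nicotine, 28.9, 25.9, 18.7 and 22.5 CPM with vehicle and 9.97 ± 2.09 CPM in air. The groups were apart in every library (-1.002 ± 0.16 log2, adjusted p = 0.00178). Fmo2, a flavin monooxygenase, was at 42.4, 59.4, 47.5 and 60 against 95.2, 87.6, 96.9 and 102 CPM (-0.87 log2, adjusted p = 0.00842). Aldh3a1, an aldehyde dehydrogenase, was at 1.28, 0.834, 0.675 and 1.43 against 2.21, 2.64, 3.6 and 4.72 CPM (-1.64 ± 0.35 log2, adjusted p = 0.00601), a low-count gene. Vehicle was also above air in Adh1, where every air library was under the lowest vehicle library.

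Ahrr, the repressor induced by the aryl hydrocarbon receptor, was the one gene of this list that rose, at 8.27, 6.67, 8.37 and 7.93 CPM with nicotine and 4.93, 4.86, 4.4 and 5.78 CPM with vehicle (0.64 ± 0.12 log2, adjusted p = 0.00333). Cyp1a1, the main target of that receptor, had 0 or 1 count in every vehicle library and 0 in every nicotine library and was not tested. Among 26 NRF2 and antioxidant genes 3 rose and 3 fell, where 10.2% and 6.4% of all genes did. With the length offset 5 of them rose and 1 fell. Txnrd1, the cytosolic thioredoxin reductase, rose by 0.50 log2 (adjusted p = 0.000917) and Prdx3, the mitochondrial peroxiredoxin, by 0.23 (adjusted p = 0.00947). Sod1, the copper-zinc superoxide dismutase, was -0.37 log2 (adjusted p = 0.00327). Outside the lists, the sulfotransferase gene Sult1a1 was at 16.2, 17.5, 15.3 and 15.1 against 28.7, 28.5, 23.2 and 25.4 CPM (-0.72 ± 0.10 log2, adjusted p = 0.000824).

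Of the nicotinic receptor subunits in the list 2 passed the filter on low counts. Chrnb1, a subunit of the muscle-type receptor, was at 9.18, 9.17, 7.97 and 9.36 CPM with nicotine and 8.53, 11.9, 10.4 and 8.64 CPM with vehicle (-0.15 ± 0.12 log2, adjusted p = 0.433). Chrnb2, a subunit of neuronal receptors, was at 1.65, 1.46, 1.69 and 0.755 against 1.28, 1.56, 1.86 and 1.68 CPM (-0.19 ± 0.27 log2, adjusted p = 0.678). The groups overlapped in both and neither was called. Chrna1 had 1 to 7 counts in each of the 12 libraries, Chrna4 0 to 4 and Chrne 0 or 1. Chrna3, Chrna5 and Chrnb4, subunits of the ganglionic receptor, had 0 counts in all 12 libraries, where 3 counts equal 0.168 to 0.221 CPM. Chrna7 had 0, 0, 0 and 2 counts in nicotine libraries 1 to 4 and 3, 0, 1 and 0 in vehicle libraries 1 to 4. Among 22 tested genes of cholinergic and adrenergic signalling 4 rose and 0 fell. These were the phosphodiesterase Pde3a (0.43 log2, adjusted p = 0.00417), the adenylyl cyclase Adcy5 (0.44, 0.00866), the alpha-1A adrenoceptor Adra1a (0.54, 0.0442) and the phosphodiesterase Pde4d (0.52, 0.0477). The last 2 had adjusted p of 0.0778 and 0.114 with the length offset, and the 4 calls became 2 without any 1 of vehicle libraries 2, 3 and 4 and nicotine libraries 2, 3 and 4. The muscarinic receptor Chrm2 and the beta-1 adrenoceptor Adrb1 were both 0.25 log2 (adjusted p = 0.28 and 0.396).

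Immediate early genes, which answer a stimulus within minutes, had 3 lower and 0 higher of 23 tested, and 20 did not pass. Their median was -0.26 log2 and 20 of 23 were negative, as were 7799 of all 14526 genes. Klf4, a transcription factor, was -0.48 log2 (adjusted p = 0.00494) and the phosphatase gene Dusp1 -0.42 (adjusted p = 0.0107), with Jund the other one (-0.25, adjusted p = 0.0311, or 0.296 under the length offset). The list's mean was 6.59 to 6.78 log2 CPM with nicotine, 6.73 to 7.10 with vehicle and 6.22 to 6.66 in air. Atf3, a stress factor, was at 153, 213, 140.0 and 159 CPM with nicotine, 150.1, 227, 277 and 283 CPM with vehicle and 70.4 ± 15.9 CPM in air (-0.49 ± 0.23 log2, adjusted p = 0.167). Both aerosol groups lay above the air mean, while they overlapped each other. Vehicle minus air was 1.73 log2 (adjusted p = 0.00157), and nicotine minus air was 1.24 log2 and not called (adjusted p = 0.162).

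In the integrated stress response 4 of 24 rose (Aldh1l2, Vldlr, Gdf15 and Slc38a2) and 1 fell (Ddit3), where 10.2% and 6.4% of all genes did. Slc38a2 and Ddit3 had adjusted p of 0.279 and 0.198 with the length offset. These 5 calls became 2 without vehicle library 3 or nicotine library 2 and 3 without vehicle library 2 or 4 or nicotine library 3 or 4. Aldh1l2, a mitochondrial folate enzyme and ATF4 target, rose by 1.17 ± 0.27 log2 (adjusted p = 0.00913). Gdf15, a stress hormone that curbs appetite, was at 26.5, 27.2, 15.1 and 18.3 CPM with nicotine and 9.87, 11.7, 8.37 and 15.6 CPM with vehicle, and overlapped (0.93 ± 0.26 log2, adjusted p = 0.0316). It had adjusted p of 0.0715, 0.083, 0.0842, 0.0712 and 0.0867 without vehicle libraries 1, 2 and 3 and nicotine libraries 1 and 2. Chaperones of the endoplasmic reticulum had 4 higher and 0 lower of 17, among them Canx (calnexin, 0.39 log2, adjusted p = 0.00216) and Hyou1 (0.46, 0.00345). Heat shock genes had 1 higher (Hspa4) and 2 lower (Dnajb1 and Cryab) of 17, where 16.6% of all genes were called. Without nicotine library 4 neither Dnajb1 nor Cryab passed (adjusted p = 0.0549 and 0.064). Cryab had adjusted p of 0.0701 and 0.055 without vehicle library 2 and nicotine library 3, and 0.337 with the length offset.

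The clock list had 4 higher (Nr1d1, Arntl, Clock and Nr1d2) and 0 lower of 19 genes, where 10.2% and 6.4% of all genes were. Most members leaned the other way, with 12 negative and 7 positive (median -0.05 log2). The list had 2 called without vehicle library 2 or 3 or nicotine library 2 or 3. Nr1d2 had an adjusted p of 0.0365, or 0.0745 under the length offset. Nr1d1 (REV-ERB alpha), a repressor that cycles strongly over the day, was at 115, 82.9, 123 and 72.4 CPM with nicotine and 41.5, 64.1, 33.6 and 45.5 CPM with vehicle (1.09 ± 0.25 log2, adjusted p = 0.0158), without overlap. Arntl (BMAL1), which Nr1d1 represses, was at 3.23, 4.24, 3.17 and 1.81 against 1.45, 1.56, 1.49 and 1.37 CPM (1.09 log2, adjusted p = 0.0349). Its adjusted p ran from 0.0582 to 0.109 without any 1 of vehicle libraries 1 to 4 and nicotine libraries 1 to 3, and was 0.0668 with the length offset. The hour of collection is not given.

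Hypoxia targets had 4 higher (Egln3, Pdk1, Egln1 and P4ha1) and 0 lower of 18. Egln3, a prolyl hydroxylase that marks HIF-alpha for destruction, was at 134, 134, 153 and 139 CPM with nicotine and 86.6, 81, 89.6 and 82.9 CPM with vehicle (0.72 ± 0.11 log2, adjusted p = 0.00136), without overlap. Pdk1, a kinase of pyruvate dehydrogenase, rose by 0.41 log2 (adjusted p = 0.00216). The 4 calls became 2 without vehicle library 2, nicotine library 2 or nicotine library 3. NF-kB targets had 1 of 21 called (Tnfaip2, higher). ERK feedback genes had 3 of 16 (Dusp4 and Spred2 higher, Rit1 lower), where 16.6% of all genes were called. These 3 became 0 without vehicle library 2, 1 without vehicle library 3 or 4 or nicotine library 3 or 4, and 6 without vehicle library 1. Spred2 and Rit1 had adjusted p of 0.0735 and 0.0557 with the length offset. In the cholesterol list Cyp51 and Hmgcs1, both of the synthesis pathway, were the 2 of 19 that rose (0.53 and 0.32 log2), against 5 called without vehicle library 1. Of all genes 10.2% were called higher. Of 26 interferon genes and of 22 cell cycle genes 0 were called by edgeR or by DESeq2, with 1 in each list at an unadjusted p under 0.05.

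Splicing and decay factors had 0 higher and 6 lower of 25, with 21 negative. Luc7l3, of the U1 particle, was -0.55 log2 (adjusted p = 0.00215) and the SR-protein kinase Clk1 -0.41 (adjusted p = 0.00682). The 6 calls became 3 without vehicle library 2 or nicotine library 4, and 9 with the length offset. Of 13 long noncoding RNAs 4 fell, namely Malat1, Gas5, Neat1 and Mhrt, the antisense partner of Myh7 (adjusted p = 0.0228, or 0.453 under the length offset). Malat1, a nuclear RNA of speckles, was -0.35 log2 (adjusted p = 0.00883). The 4 became 1 without vehicle library 2, vehicle library 3 or nicotine library 4, 2 without vehicle library 4 or nicotine library 3, and 6 without vehicle library 1 or nicotine library 1. Noncoding genes made up 2.44% of higher calls, 9.26% of lower calls and 10.4% of genes tested. They also took a smaller share of counts in every nicotine library than in any vehicle library, and the part of that share in these calls was not tested.

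Of the markers of other cells in the ventricle, the endothelial ones held the most calls. In bulk tissue fewer cells of a type and less RNA per cell cannot be told apart. Of 12 endothelial markers 0 rose and 4 fell (Fabp4, Esam, Emcn and Egfl7), where 6.4% of all genes were called lower. The signs in this list were mixed, with 7 negative and 5 positive. Fabp4, a fatty acid carrier of capillaries that is also an adipocyte marker, was at 519.6, 499, 492 and 536 CPM with nicotine and 799, 889, 735 and 660.4 CPM with vehicle (-0.59 log2, adjusted p = 0.00295), without overlap. The list's mean was 7.15 to 7.22 log2 CPM with nicotine, 7.24 to 7.43 with vehicle and 6.97 to 7.16 in air. The 4 calls became 1 without vehicle library 2 and 2 without vehicle library 3, vehicle library 4 or nicotine library 2.

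All 7 tested blood and erythroid markers were negative (median -0.61 log2) with 0 called by edgeR (5 at an unadjusted p under 0.05) and 2 by DESeq2. Hbb-bs, a beta-globin gene, was at 219, 195, 265 and 215 CPM with nicotine and 328, 398, 437 and 345 CPM with vehicle (-0.76 ± 0.27 log2, adjusted p = 0.0818). Their mean was 3.90 to 4.23 log2 CPM with nicotine, 4.47 to 4.82 with vehicle and 3.55 to 4.81 in air, so air spanned both. Macrophage markers had 0 higher and 1 lower of 14 tested (C1qa, a complement subunit, -0.34 log2, adjusted p = 0.013, with 0.0518 without vehicle library 3 and 0.341 with the length offset). Of those 14 macrophage markers 12 were negative and 5 had an unadjusted p under 0.05, while 6.4% of all genes were called lower. Of the smooth muscle and pericyte and the atrial markers 1 of 12 and 1 of 9 tested were called higher. Of the adipocyte and mesothelial markers 1 of 7 and 1 of 3 tested were called lower. Of all genes 16.6% were called in either direction. Of the T and NK cell, B cell, neutrophil and neuronal markers tested 0 were called by edgeR or DESeq2 (2 neuronal ones had an unadjusted p under 0.05). The part of blood and endothelial content in the other results was not tested.

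Pacsin2, an adaptor of membrane bending and endocytosis, ranked first by p among higher genes. It was at 288, 295, 291 and 303 CPM with nicotine, 213, 189.9, 195 and 198 CPM with vehicle and 297 ± 17.2 CPM in air (0.56 ± 0.06 log2, adjusted p = 0.00023). Cpox, of heme synthesis, was at 50.8, 48.2, 62.1 and 55.7 against 34.6, 32.3, 32.9 and 34.2 CPM (0.69 log2). Tcp11l2 read 150.4, 129, 142 and 142 against 87.3, 102, 90.1 and 85 CPM. Nicotine and vehicle were apart in all 3.

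Among lower genes, Atcayos had the smallest p, at 86.7, 75.5, 99.7 and 79.7 against 134, 139, 132 and 127 CPM (-0.64 log2, adjusted p = 0.000519). It is named as the opposite strand of Atcay, and as the strand setting of the counting is not given, its reads and those of Atcay cannot be told apart. Podn (podocan), a small leucine-rich matrix protein, was at 11.1, 11.7, 11 and 11.1 CPM with nicotine and 18.9, 19.5, 25.1 and 22.7 CPM with vehicle (-0.94 ± 0.13 log2, adjusted p = 0.000766). The nicotine libraries lay close together, all under the lowest vehicle library. Sat1, the enzyme that acetylates polyamines for breakdown, was at 82.4, 84.4, 79 and 79.6 against 104, 123, 114 and 110.0 CPM, with 63.7 ± 4.22 CPM in air (-0.47 log2, adjusted p = 0.000917). The air mean was lower than that of both aerosol groups. Vehicle was 0.83 log2 above air (adjusted p = 1.15e-05), and nicotine 0.35 log2 above it, which was not called (adjusted p = 0.0796).

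The largest changes among well-measured genes, called genes past 1 log2 with a mean of at least 3 log2 CPM, were looked up after their values were seen. Irs1, the docking protein of the insulin receptor, was at 10.2, 12.5, 19.2 and 15.6 CPM with nicotine and 5.81, 3.84, 6.26 and 4.97 CPM with vehicle (1.46 ± 0.19 log2, adjusted p = 0.000849). Gpam, the first enzyme of triglyceride synthesis, was at 126, 181, 239 and 248 against 104, 75.4, 81.4 and 81.8 CPM (1.21 log2), and Ppara, the nuclear receptor for fatty acids, at 24.6, 27, 31.3 and 32.7 against 16.5, 10.7, 14.8 and 14.3 CPM (1.04 log2). In Irs1, Gpam and Ppara the lowest nicotine library was number 1, still above every vehicle library. Air was at 11.6 ± 1.68 CPM in Irs1, 195 ± 34.8 in Gpam and 30.3 ± 8.90 in Ppara. Nicotine minus air was 0.31, 0.02 and -0.07 log2 in that order (adjusted p = 0.848, 0.994 and 0.986). Vehicle minus air was -1.15, -1.19 and -1.11 log2 (adjusted p = 0.0019, 0.00403 and 0.00334).

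Pdpr, the regulatory subunit of pyruvate dehydrogenase phosphatase, read 42, 73.8, 92.2 and 92.5 against 32.4, 18.5, 22.4 and 25.5 CPM (1.61 ± 0.32 log2, adjusted p = 0.00934). The translation repressor gene Eif4ebp2 was 1.12 log2 higher (adjusted p = 0.00151). On the lower side, Gsta3, a glutathione transferase, was at 7.45, 9.17, 8.17 and 8.15 CPM with nicotine and 14.5, 15.4, 21.2 and 21.2 CPM with vehicle (-1.13 ± 0.19 log2, adjusted p = 0.00216). Air was at 73.5 ± 26.1 CPM in Pdpr, 21.0 ± 4.45 in Eif4ebp2 and 9.02 ± 2.77 in Gsta3. Nicotine minus air was 0.03, 0.16 and -0.13 log2 in that order (adjusted p = 0.994, 0.952 and 0.974). Vehicle minus air was -1.57, -0.96 and 0.996 log2 (adjusted p = 0.00933, 0.00228 and 0.00308). All of these genes were called with the length offset too.

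The nicotine effect was also set against that in mice whose exposure began at 3 weeks of age (4 nicotine and 3 vehicle libraries), by the difference of the 2 effects in a fit of all 23 libraries. Of 15500 genes edgeR called 0 (1000 had an unadjusted p under 0.05). With DESeq2 there were 28. The 3-week nicotine minus vehicle contrast itself had 0 calls in that fit (2992 at an unadjusted p under 0.05). Among the smallest p-values was that of Vwc2, a secreted BMP-pathway protein, with an effect of -0.57 log2 from 3 months and 1.03 from 3 weeks (difference -1.60 ± 0.30). Others were Retsat (-0.10 and 0.75, difference -0.85 ± 0.17), the ubiquitin ligase Rnf213 (0.13 and -0.56, difference 0.69 ± 0.14) and the laminin chain Lama4 (0.29 and -0.30, difference 0.59 ± 0.12). All of these had an adjusted p of 0.234. Col4a2 had 0.71 and 0.02 log2 (difference 0.69 ± 0.19, adjusted p = 0.467), and Atp2a2 0.77 and 0.74 (difference 0.02 ± 0.45, adjusted p = 1). Without vehicle library 4 of the 3-week start 313 genes were called. Starting age cannot be told apart here from age at the end of exposure.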

How the data were processed

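Left ventricle RNA was counted in 12 libraries of the 3-month start (4 nicotine, 4 vehicle, 4 air), of 23 in the series. The deposited values are raw counts, whole reads per gene. Tools named in the submitters' processing notes are DESeq2, STAR 2.5.2b Subread 1.5.2 with featureCounts, and Trimmomatic 0.36. Genome build, annotation and strand setting: not given in the sources used here. Values of overlapping, antisense and near-identical genes are therefore uncertain. GENCODE vM21, joined on gene ID, supplied symbols, types and lengths of exons (49056 genes with a symbol, and 14504 of the tested genes with a length).

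The test was that of edgeR 4.0.16 in R 4.3.3 (filterByExpr at a minimum count of 10, TMM, robust quasi-likelihood F-test on 12 libraries and 3 groups with 9 residual degrees of freedom, Benjamini-Hochberg over 14526 genes, threshold 0.05). All adjusted p-values are from this test unless another fit or tool is named. CPM are scaled by TMM, and differences are log2 ± SE. The difference between starting ages was fitted over 23 libraries and 15500 genes. The scripts were tested on simulated data. Library totals set the counting precision, and 3 counts were used as the floor for a count of 0, which covers counting error only.

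Libraries were grouped by title, and no 2 libraries of a group agreed within sampling noise (chi-square per degree of freedom 4.67 to 16.0). The members, the 47 gene lists, the choice of libraries in the fit and the rule for naming genes were chosen with earlier results of these data known. Genes named were the 10 higher and 10 lower with the smallest p at a mean of at least 1 log2 CPM, up to 4 called genes per list with the smallest p, and 16 genes followed whatever their p. Predicted gene models were counted and not named. Results of some single genes are not reported here. Any other gene was chosen after its values were seen. Alternatives were RLE and upper-quartile scaling, no count filter, a minimum count of 50, DESeq2 1.42.0, all 23 or only 8 libraries, the replicate number as a block, the length offset (a lowess trend with span 0.3 per library) and leaving out each library. Promoter stretches came from RefSeq, build GRCm38.p6. The authors' deposited fold changes against air and their table of gene ontology terms were not used.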

Additional observations from a re-analysis of the deposited data

Results flagged for a closer look

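In 14 of 352 groups of 4 values checked, 1 library lay far from the other 3 by Dixon's criterion at 95%, which chance alone would do in about 1 in 20. Nicotine library 1 was low in Ryr2 (1094 against 1564 to 1639 CPM) and in the glycosyltransferase gene Alg10b (6.47 against 16.3 to 16.7), and high in the mesothelial marker Gpm6a (2.18 against 1.67 to 1.74). Each of these values lay toward the vehicle level. Vehicle library 1 was high in Alg10b (9.06 against 6.02 to 6.23 CPM), Jph2 (916 against 768 to 782) and Ndufs1 (712 against 595 to 613), each toward the nicotine level.

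Vehicle library 2 was high in Tnnc1 (4184 against 3826 to 3881 CPM), Etfb (337 against 273 to 277) and the nuclear RNA Malat1 (1677 against 1297 to 1345), and low in Pm20d2, a peptidase gene (5.09 against 10.4 to 11.3), each away from the nicotine level. Nicotine library 3 was high in the beta-1 adrenoceptor gene Adrb1 (27.1 against 14.6 to 15.8 CPM) and low in the nicotinic subunit gene Chrnb1 (7.97 against 9.17 to 9.36) and the mitochondrial tRNA gene mt-Tm (24.0 against 31.0 to 31.1). Nicotine library 2 was high in Podn, by a small margin (11.7 against 11.01 to 11.1 CPM).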

How the results depend on the processing

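The 2405 calls (1476 higher, 929 lower) were 0 with all 23 libraries in the fit, which gave 0 higher and 0 lower. Fits with RLE, no filter, a minimum count of 50, DESeq2 and only the 8 compared libraries stayed within 1.5 times of all 3 counts, at 2247 to 2652 calls. Upper-quartile scaling gave 1410 lower genes and the length offset 599. Without single libraries the calls ran from 1253 to 2788, the higher ones from 873 to 1694 and the lower ones from 380 to 1143. The test of the difference between starting ages called 0 genes, 28 by DESeq2, and 0 to 313 without single libraries, the 313 being without vehicle library 4 of the 3-week start. The cause of these changes was not tested.

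The replicate number as a block, on the 8 compared libraries, gave 1351 calls (884 higher, 467 lower), of which 1307 were called with the same sign without it, and 726 with the length offset added (506 higher, 220 lower). Ribosomal calls were 13 of 30 with the block. Same-numbered libraries had correlations of their deviations of -0.02, 0.04, 0.06 and -0.34, and not every library correlated best with its own number, so the numbers are not treated as pairs.

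Of 172 named and tested genes 157 were called, 111 of them without each library in turn. All 157 calls were lost with all 23 libraries, 33 with the length offset, 34 with the block, 10 with upper-quartile scaling, 6 with 8 libraries and 1 with DESeq2, and 0 reversed. Genes that were not called and changed sign without single libraries were Nppa (-0.15 to 0.0567), Nppb (-0.0634 to 0.13), Acta1 (-0.0897 to 0.24), Ankrd1 (-0.12 to 0.0932), Adrb1 (-0.0064 to 0.37) and Chrnb2 (-0.30 to 0.0167). Nppa was also 0.15 with the length offset and 0.17 with the offset and block, and Ankrd1 was -0.0364 with upper quartiles and -0.00795 with the block. The length offset moved the median of 14 lists by more than 1 SD between libraries. Depth limits low-count genes such as Aldh3a1 and the nicotinic subunits most.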
